A study of Rattus norvegicus with 11 samples.

Results

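Peripheral blood leukocytes (WBCs) of rats in early collagen-induced arthritis (CIA) were compared with those of normal healthy rats, over every gene whose FPKM averaged at least 1 across the 7 samples involved. FPKM counts the sequenced fragments of a gene per length of its transcript and per depth of the sample. It is thus a level relative to the total of its sample, and the haemoglobin share of that total differed between rats. Of the 32623 genes in the table, 11219 met this limit. The 4 CIA samples (CIA rats 1 to 4) are labelled NAMPT++ and were taken at about day 8, after a boost injection on day 7. The 3 control samples (controls 1 to 3) came from normal rats, and the 4 later NAMPT+ samples among the 11 of the series were not part of the comparison. All were Wistar rats, males 7 weeks old at the start by the study's methods. CIA was induced by injecting type II collagen emulsified in incomplete Freund's adjuvant, and the labels name no mock injection of the controls. The authors sorted the CIA samples by their own PCR of Nampt, so the level of this gene was part of how the CIA samples were picked. One field of the sample records speaks of retinas, in conflict with all the others. Retinal genes were near 0 here, with 8 of 14 listed at 0 in every sample, Rpe65 among them.

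CIA is a model of rheumatoid arthritis in which immunization against cartilage collagen raises T cells and antibodies that attack the joints. Innate leukocytes take part in it: neutrophils and monocytes sense microbial and damage products through Toll-like receptors, whose signals run through MAP kinases and NF-kappa B to cytokines such as interleukin-1. Nampt is the rate-limiting enzyme that salvages nicotinamide into NAD, which glycolysis needs, and Tpi1 is the glycolytic enzyme that interconverts the triose phosphates.

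Depth was high in all samples, with 65340027 to 85449911 counts in CIA rats and 71500619 to 85819418 in controls. The share of counts from haemoglobin genes ran from 6.84% to 37.3% in CIA rats and from 16.2% to 30.9% in controls, so the groups overlapped in the RNA left over from red cells. The samples did not sort by group. Across the tested genes, which are not independent replicates, Pearson's r of log2(FPKM + 1) was 0.920 to 0.972 between CIA rats, 0.904 to 0.941 between controls and 0.898 to 0.975 between a CIA rat and a control. The highest r of all pairs, 0.975, joined control 2 with CIA rat 3. Because whole leukocyte preparations were sequenced, fewer cells of a type and less of its RNA per cell cannot be told apart in any value that follows.

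Few genes separated early CIA from the normal state. A gene was called if its mean FPKM in CIA rats was over 2 times or under 0.5 times that in controls with an unadjusted p under 0.05 in edgeR's quasi-likelihood test, the thresholds of the study. This gave 77 genes or 0.686% of those tested, with 37 called higher in CIA rats (0.33%) and 40 called lower (0.357%). Only 176 genes had an unadjusted p under 0.05 (1.57%), and 0 had an adjusted p under 0.05 after Benjamini-Hochberg adjustment, where the smallest was 0.9999. On the simulated counts described with the processing, which lack shifts shared by whole samples, 4.56% of unchanged genes had an unadjusted p under 0.05. The 1.57% was below that share, so the calls describe differences in these 7 samples only. With DESeq2 the adjusted p was under 0.05 for 5 genes, all higher in CIA rats: Ighg1, Pomp, AC112062, LOC100361259 and Spsb2, the last 3 named after their values were seen. Spsb2 had 1209 and 425 counts in CIA rats 1 and 4 and 0 in the other 5 samples. The levels of CIA rats and controls did not overlap in 71 genes with CIA rats higher (0.633%) and in 52 with CIA rats lower (0.463%). Of the 77 genes, 30 were among these, and 24 had a mean FPKM of at least 10.

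**Figure D1:**
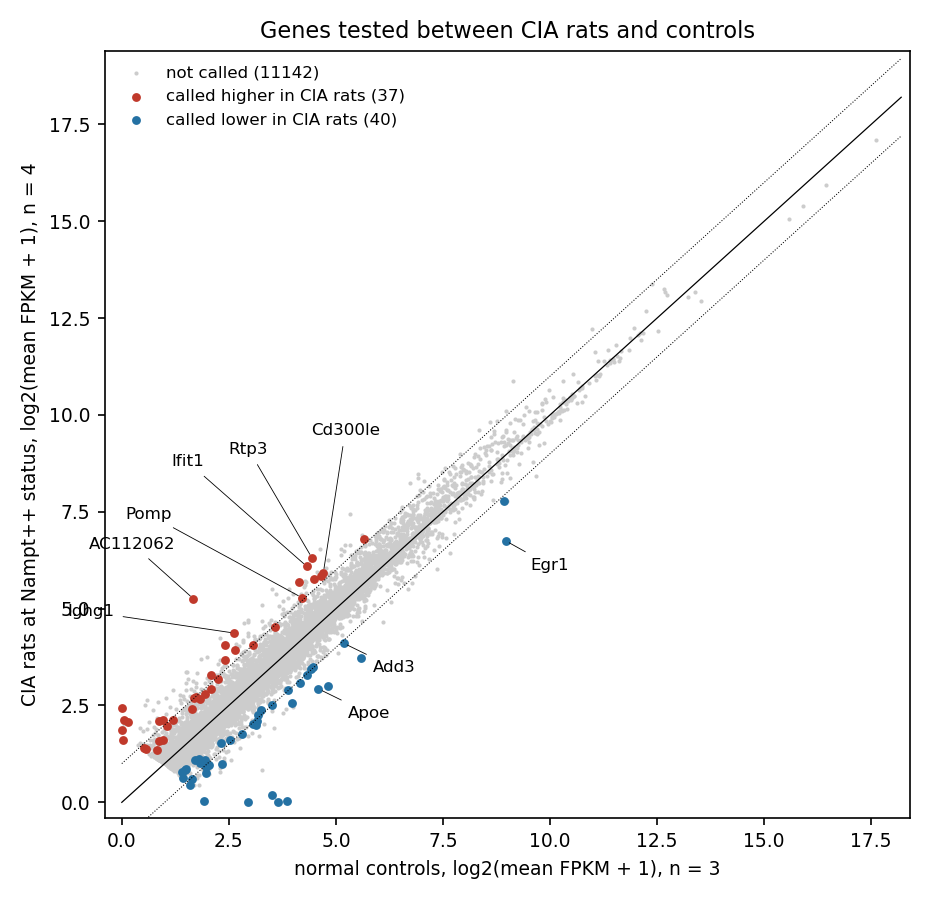
Mean FPKM of each of the 11219 tested genes in normal controls (x axis, n = 3) and in CIA rats (y axis, n = 4), both as log2(mean FPKM + 1), with the 37 genes called higher in red and the 40 called lower in blue. The solid line marks equal means and the dotted lines lie 1 unit away. Of the 77, 24 have a mean of at least 10 FPKM over the 7 samples.

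Leaving out the haemoglobin genes before scaling lowered the FPKM ratios and so moved genes across the 2-fold limits. The ratio of CIA rats to controls became lower in 97.7% of the genes, with a median change of -0.12 on the log2 scale, whereas the fitted log2 fold changes moved by a median of 0.002. The table holds 11 haemoglobin genes, 8 of them tested, and 0 of the 8 were called. Without them, 30 genes were called higher (0.268%) and 49 lower (0.437%), so the share of higher genes among those called moved from 48.05% to 37.97%. All 40 genes called lower were still called and 9 joined them, Cd24, Bcl11a and B3gnt7 among them, whereas 30 of the 37 called higher remained and 7 dropped out, including Elovl1, Gchfr and Pld1. All 7 lost had an unadjusted p under 0.05 in both fits, and no gene turned from one side to the other. These genes other than Elovl1 were named after their values were seen. Haemoglobin levels overlapped between the groups. Hbb, the beta chain, had an FPKM of 15300, 95300, 48100 and 14300 in CIA rats 1 to 4 and 75200, 68400 and 39800 in controls 1 to 3. Hba-a3, an alpha chain whose reads could be shared with other alpha chain genes, followed another order, with 1160, 3610, 1980 and 691 in CIA rats and 58.9, 66.2 and 1550 in controls. Controls 1 and 2 were thus far below the rest for this gene, and it was not called (log2 fold change 2.11, standard error 1.17). Without control 3 it was called higher, with a log2 fold change of 4.76.

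A single rat decided how many genes were called. The count was 462 without control 2, with 329 higher (2.91%) and 133 lower (1.18%), 184 without CIA rat 2 (69 higher and 115 lower), 142 without control 3 (73 and 69) and 53 without control 1 (30 and 23). Leaving out CIA rat 1, 3 or 4 gave 86, 88 and 77. Without control 2, 24 of the 37 genes called higher and 27 of the 40 called lower were called again. Of the 77 genes, 14 were called whichever sample was left out, and 9 of these were higher in CIA rats. Among them were Ighg1, Cd300le, RGD1561143, Grb7, LOC100360647 and AC112062 on the higher side, and Egr1 and Wbp11 on the lower.

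**Figure D2:**
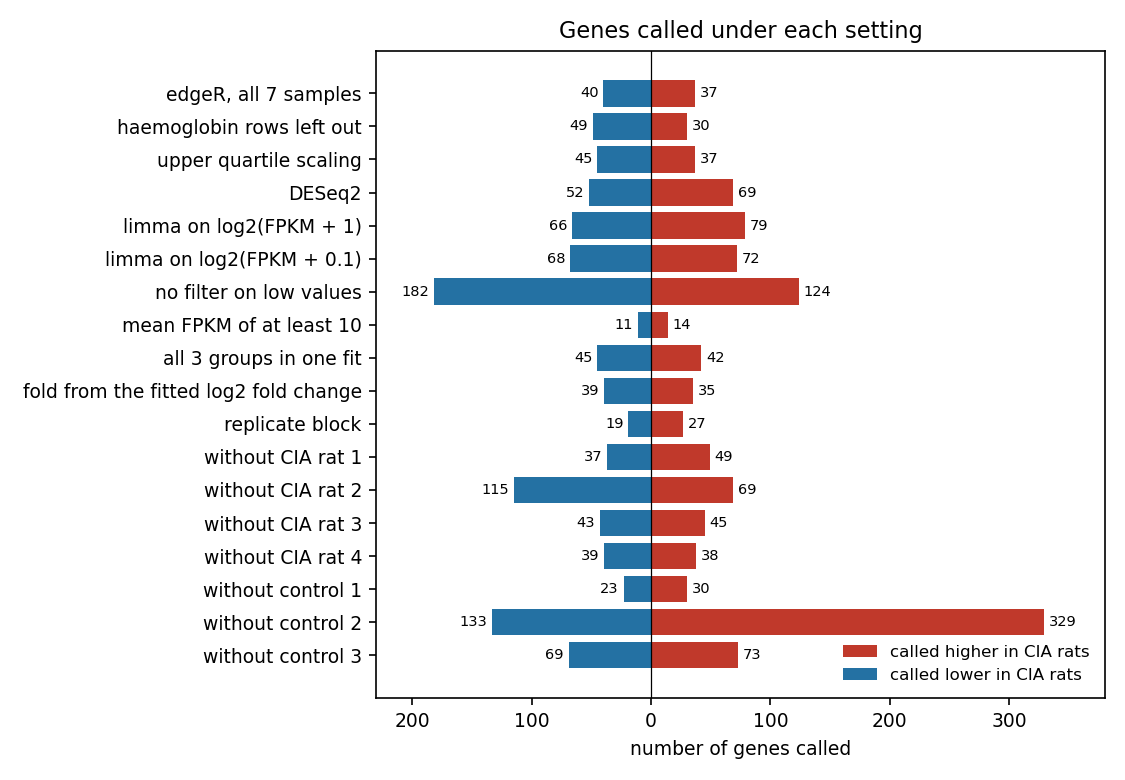
Number of genes called higher (red, to the right) and lower (blue, to the left) in CIA rats under each setting, with the numbers printed at the bar ends. With all 7 samples there were 37 and 40, and leaving out control 2 raised them to 329 and 133.

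Ighg1 encodes the constant part of the IgG1 heavy chain, the class of antibody secreted by switched B cells and plasma cells. Its FPKM was 16.1, 22, 14.9 and 25.7 in CIA rats and 6.83, 3.02 and 5.73 in controls. Every CIA rat was at more than double the level of every control. The mean rose 3.78-fold, from 5.19 ± 1.96 (SD, n = 3) to 19.7 ± 5.07 (SD, n = 4), with a log2 fold change of 1.92 (standard error 0.31) that stayed between 1.76 and 2.20 with each sample left out. The exact permutation test of log2(FPKM + 1) gave p = 0.0286, the smallest that 4 samples against 3 allow, and DESeq2 an adjusted p of 2e-05. As the gene was named for its call and its lack of overlap, that permutation p largely restates the choice. The gene lies on chromosome 6 from 139140679 to 139142218 in the coordinates of the table, whose genome build is not given in the sources used here.

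The other antibody genes did not follow as a group. Ighm, the IgM heavy chain, named after its values were seen, had an FPKM of 244, 271, 189 and 207 in CIA rats and 261, 123 and 515 in controls, and Jchain, which joins IgM and IgA chains, had 182, 203, 162 and 147 against 187, 73.1 and 247. Both overlapped between the groups. Genes annotated with immunoglobulin production or antigen binding on chromosomes 3, 4, 6, 11 and 15 numbered 146 among those tested. They include Ighg1 and were not limited to antibody loci. This set was put together after the values were seen. Of the 146, 6 were called higher, Ighg1 among them, and 4 lower, where 0.33% and 0.357% of all tested genes were. Calls were thus more frequent in the set and went both ways, but not alike on each chromosome. All 6 higher calls lay on chromosomes 4 and 6, with 3 of 27 and 3 of 59 genes called higher and 0 and 1 lower. The medians there were 0.16 and 0.09. Chromosomes 3, 11 and 15 held 1 lower call each and 0 higher. The median log2 fold change was 0.06, against 0.00 over all genes. Those called on chromosome 4 were AABR07060980, AABR07060953 and AABR07061003. On chromosome 6, AABR07065883 was at 15.4, 16.4, 9.70 and 5.67 FPKM in CIA rats and 3.67, 3.97 and 5.22 in controls without overlap, whereas AABR07065768 was called lower. For the latter control 1 stood apart at 59.4, with 1.46 to 9.57 in CIA rats and 10.4 and 11.0 in the other controls. It was no longer called without control 1 or CIA rat 1, 3 or 4, whereas AABR07065883 was called with each sample left out. Short segments of this kind resemble each other closely, so reads could be divided among them. Vpreb2, of the same set and part of the surrogate light chain of precursor B cells, was called lower at a low level, with at most 0.768 FPKM in CIA rats and 0.968, 3.29 and 1.86 in controls, and the call was lost without CIA rat 1 or 4. Without control 2 or 3 it fell under the FPKM limit and was not tested.

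Cd300le encodes an activating receptor of the CD300 family on myeloid cells. It had 54.6, 54.4, 77.6 and 52.6 FPKM in CIA rats and 20.7, 28.4 and 26.2 in controls, with no overlap. The mean rose 2.38-fold, a log2 fold change of 1.20 (standard error 0.30, exact permutation test of log2(FPKM + 1), p = 0.0286), between 1.02 and 1.52 with each sample left out. This gene too was named for its lack of overlap, which that p largely restates. Neutrophil and monocyte markers, given with the marker lists, overlapped between the groups, and their part in the rise was not tested.

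Of 2 receptor-like genes on chromosome 12, RGD1561143 is described as similar to the cell surface receptor FDFACT and LOC681182 as similar to a paired immunoglobulin-like type 2 receptor. RGD1561143 had 13.2, 6.21, 18.3 and 25.5 FPKM in CIA rats and 3.23, 5.35 and 4.37 in controls, without overlap, a 3.66-fold rise with a log2 fold change of 1.73 (standard error 0.46, exact permutation test, p = 0.0571). CIA rat 2 came closest to the controls. LOC681182, named after its values were seen, had 3.17, 3.46, 6.16 and 9.54 against 2.01, 1.37 and 3.52, and was called with a log2 fold change of 1.29, though not without CIA rat 4. The summed FPKM of the pair was 3.23 times as high in CIA rats (exact permutation test, p = 0.0571). AABR07006310, a pseudogene described as macrophage expressed 1 and also named after its values were seen, was at 81.5, 23.8, 52.0 and 57.5 in CIA rats and 14.2, 27.9 and 22.7 in controls, so that CIA rat 2 lay within the controls, and it was not called without CIA rat 1 or control 1 or 3.

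Elovl1 makes very long chain fatty acids. Its FPKM was 32.7, 21.4, 21.7 and 12.5 in CIA rats and 11.4, 9.21 and 12.1 in controls, a 2.02-fold higher mean just above the threshold, and it was no longer called without CIA rat 1, control 2 or control 3, or without the haemoglobin genes. Add3, a membrane skeleton protein of the adducin family, fell. It had 17.0, 15.0, 16.5 and 16.5 FPKM in CIA rats and 21.8, 20.7 and 63.0 in controls, so the CIA rats were nearly alike and control 3 set most of the difference. Its log2 fold change was -1.03 (standard error 0.28), and the call was lost without control 3.

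**Figure D3:**
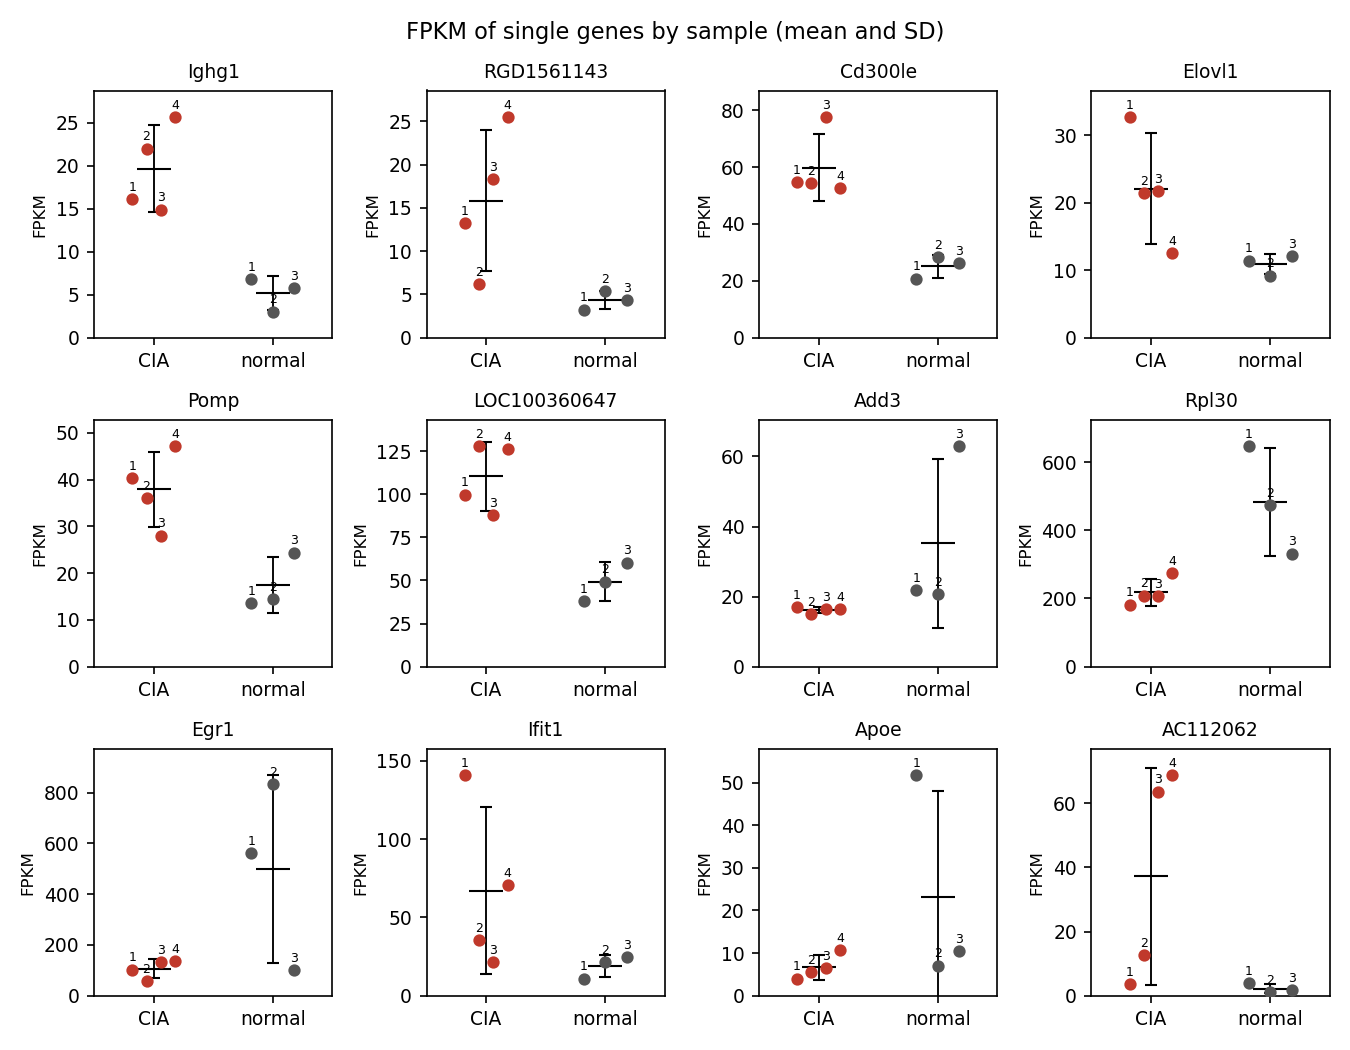
FPKM of 12 genes in each CIA rat (red) and each control (grey), with the sample number beside each point, the mean as a horizontal mark and the SD as a bar, cut at 0 where it would fall below. Ighg1 and Cd300le separate the groups, whereas Egr1 and Apoe are low in all CIA rats but also in 1 or 2 controls.

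Of the leading genes, 3 have another gene of the same or a like description in the table, with which reads could be shared. These partners were added after the values were seen, and their sequences were not compared. Pomp encodes a chaperone for assembling the proteasome, and it had 40.3, 36.1, 28.0 and 47.2 FPKM in CIA rats and 13.6, 14.4 and 24.4 in controls, a log2 fold change of 1.11 (standard error 0.21) whose call was lost without CIA rat 4 or control 1 or 2. LOC100911238, described as Pomp-like, on the same chromosome was at 68.2, 49.0, 74.7 and 69.3 against 71.0, 66.3 and 85.4. The sum of both was 1.13 times as high in CIA rats, a difference in log2(FPKM + 1) of 0.17 (exact permutation test, p = 0.314) in place of 1.10. LOC100360647, described like the ribosomal fusion gene Fau, rose 2.24-fold with 99.7, 128, 87.8 and 126 FPKM against 37.9, 49.3 and 60.4, but summed with Fau it was 1.08 times as high. Rpl30, a protein of the large ribosomal subunit, is listed on chromosome 10 with 182, 208, 206 and 275 FPKM in CIA rats and 647, 474 and 331 in controls, and was called lower, though not without control 1. LOC100362027, described as Rpl30-like, carries most of the reads, with 1650 to 2300 in CIA rats and 924 to 2700 in controls, and the sum differed by 0.04 (exact permutation test, p = 0.943).

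Egr1, a zinc finger transcription factor switched on within minutes of many stimuli, was the most abundant gene called lower after Rpl30. Its FPKM was 102, 56.5, 132 and 136 in CIA rats and 561, 834 and 99.4 in controls. Controls 1 and 2 were at least 4 times as high as any CIA rat, whereas control 3 lay among the CIA rats. The log2 fold change was -2.47 (standard error 0.72) and ranged from -2.99 to -1.64 with each sample left out, still called each time, but the exact permutation test on 7 samples gave p = 0.143. The rest of the list of 22 immediate early genes was not called, and 7 of the 22 had a positive fold change (median -0.23). Fos, named after its values were seen, had 103, 58.2, 119 and 104 against 280, 179 and 49.2, with a log2 fold change of -0.97 (standard error 0.57), also with control 3 lowest. Junb had the highest level of the list, with 1980, 469, 1010 and 1040 against 1420, 1830 and 466. CIA rat 2 and control 3 were thus the lowest of their groups for all these genes.

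The stretch of 250 bases before the start of Egr1 is shown because serum response factor, which drives immediate early genes, binds CArG boxes, and the capitals mark the 2 matches to CC, 6 bases that are A or T, and GG. It is taken from RefSeq for the build GRCr8, chr18:26736828-26737077 on the plus strand.
Egr1 upstream: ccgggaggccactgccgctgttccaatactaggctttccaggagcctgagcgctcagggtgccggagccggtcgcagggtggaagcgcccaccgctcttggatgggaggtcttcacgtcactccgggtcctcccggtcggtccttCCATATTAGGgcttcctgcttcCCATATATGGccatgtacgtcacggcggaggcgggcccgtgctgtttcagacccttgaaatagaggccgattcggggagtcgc
The motif reads the same on both strands. Of the 15 immediate early genes tested that have an entry in the promoter table, 4 hold a match in this window (Egr1, Egr2, Klf6 and Zfp36), against 1.5% of all 33469 promoters. A match describes the letters only.

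Interferon-stimulated genes did not move together. Of 50 tested, 1 was called higher and 1 lower, 27 had a positive fold change, and the median was 0.07. Ifit1, which binds viral RNA lacking proper caps, was at 141, 35.3, 21.5 and 70.5 FPKM in CIA rats and 10.9, 21.3 and 24.6 in controls, with a log2 fold change of 1.72 (standard error 0.61). CIA rats 1 and 4 were highest, CIA rat 2 also lay above every control, and CIA rat 3 lay within the controls. The call was kept whichever CIA rat was left out, with a log2 fold change of 1.09 without CIA rat 1. It was lost without control 1 or control 3. Mx2, a GTPase, was called lower at 1.82, 4.35, 1.98 and 3.77 against 14.6, 2.95 and 5.80, where control 1 stood apart, and was not called without control 1 or CIA rat 1, 3 or 4. Ifit3, the highest of the list, was at 488, 92.7, 396 and 370 against 451, 497 and 87.6. Isg15, a ubiquitin-like modifier named after its values were seen, had 250, 75.5, 142 and 166 against 349, 297 and 54.3 and was not called (log2 fold change -0.77, standard error 0.66).

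Nampt did not differ between the groups beyond the spread between rats. Its FPKM was 46.5, 10.1, 36.1 and 30.6 in CIA rats and 20.3, 32.9 and 13.5 in controls, and the level in CIA rat 2 was the lowest of all 7 samples despite the label. The log2 fold change was 0.27 (standard error 0.55, exact permutation test, p = 0.571), 0.92 without control 2 and -0.09 without control 3. For Tpi1 the levels were 58.5, 5.02, 33.6 and 28.5 against 18.6, 30.4 and 16.6, with a log2 fold change of 0.33 (standard error 0.68, exact permutation test, p = 0.914) that was -0.13 without CIA rat 1. Of the 22 tested genes that make or use NAD, 1 was called, and the median log2 fold change was 0.00. That gene, Nt5e, the ecto-enzyme CD73 that turns AMP into adenosine, was at 11.2, 3.00, 4.55 and 3.07 in CIA rats and 2.32, 1.73 and 2.68 in controls, without overlap, and was no longer called without CIA rat 1 or any single control. Nadk, which makes NADP, had the highest level of this list, with 219, 59.8, 188 and 203 against 67.3, 161 and 58.1. Of 22 glycolysis genes, 0 were called, 16 had a positive fold change, and the median was 0.33. That median was 0.01 without CIA rat 1, 0.06 without control 3 and 0.69 without control 2. Pkm, the last enzyme of the pathway, was at 918, 274, 537 and 607 against 300, 517 and 319.

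The innate signalling lists leaned higher in CIA rats without calls. Of 22 tested Toll-like receptors and adaptors 0 were called, with 19 positive fold changes and a median of 0.28. Of 18 NF-kappa B genes 0 were called (15 positive, median 0.30), of 23 MAP kinase genes 0 (19 positive, median 0.13), and of 16 interleukin-1 and inflammasome genes 0 (13 positive, median 0.48). Over all tested genes 50.4% had a positive fold change. Tlr2, the receptor for bacterial lipoproteins, was at 239, 99.5, 191 and 174 in CIA rats and 51.8, 173 and 64.7 in controls, with a log2 fold change of 0.65 (standard error 0.56). Control 2 lay among the CIA rats and CIA rat 2 was the lowest of its group.

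This pattern of control 2 set apart from the other controls ran through these lists. Without it, 6 of 18 NF-kappa B genes were called higher, Tnip1, Nfkbib, Bcl3, Nfkb2, Nfkbie and Relb, beside 5 of 22 Toll-like receptor genes, 5 of 16 interleukin-1 genes and 3 of 24 MAP kinase genes, where 2.91% of all genes were called higher. Genes named in any paragraph for their values without control 2 were chosen after those values were seen. Tlr2 then had a log2 fold change of 1.73, Nfkb2 of 1.57 in place of 0.41 and Bcl3, an inhibitor-like regulator of NF-kappa B, of 1.86 in place of 0.51. Without control 3 the same genes went the other way, to 0.31, 0.09 and 0.11, the median of the NF-kappa B list to 0.10 and that of the interleukin-1 list to 0.14. Of the 977 list members then tested 2 were called higher and 23 lower, where 0.655% and 0.619% of all genes were. Il1a, the membrane-held interleukin-1, was at 6.14, 8.69, 8.06 and 11.3 in CIA rats and 2.57, 6.46 and 4.04 in controls. Its log2 fold change of 0.84 became 1.54 without control 2 and 0.62 without control 3. Map2k3, a kinase that activates p38, was at 35.7, 35, 41.1 and 38.5 against 14.2, 42.6 and 18.8, and LOC108348082, described as like this kinase, had 40.8 FPKM in control 2, 0.133 in CIA rat 2 and 0 in the other 5 samples. LOC108348082 was called lower from control 2 alone, and the sum of both genes differed by 0.39 on the log2(FPKM + 1) scale (p = 0.543, exact permutation test).

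**Figure D4:**
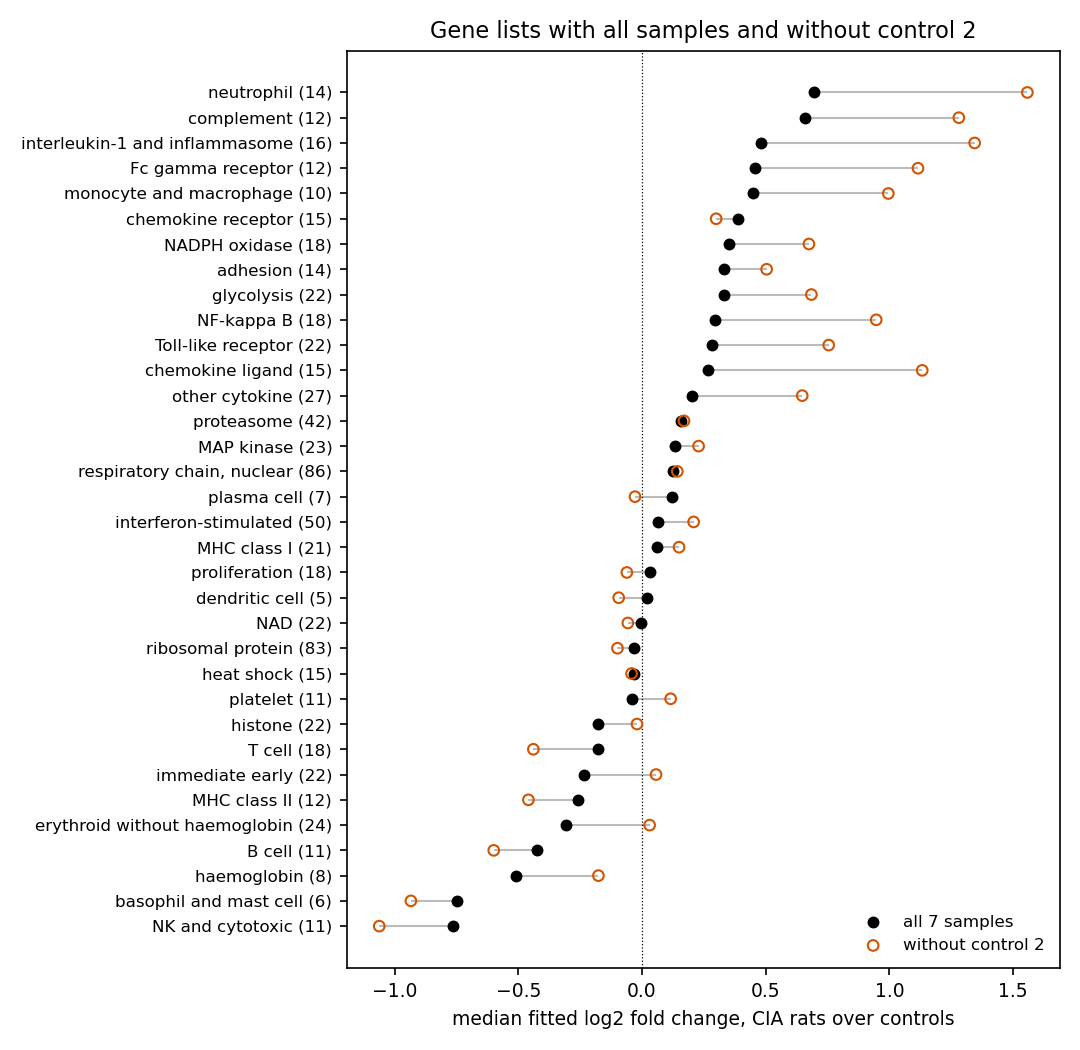
Median fitted log2 fold change (CIA rats over controls) of each list with at least 5 tested genes, the KEGG lists aside, with all 7 samples (filled) and without control 2 (open), the number tested with all 7 samples in brackets and the median of all tested genes as a dotted line. Without control 2 the neutrophil, monocyte, complement and NF-kappa B lists move to the right, and the T, B and NK cell lists to the left.

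The lists fixed from the study's KEGG terms came from terms that the study named for the 11 samples of the series, these 7 included, so they are no independent evidence. KEGG Toll-like receptor signaling held 75 tested genes with 0 called higher and 1 lower, MAPK signaling 176 with 0 and 1, and in both the gene called was LOC108348082. NF-kappa B signaling held 76 and TGF-beta signaling 46, with 0 called. Type II diabetes mellitus held 26 with 0 called, nicotinate and nicotinamide metabolism 19 with Nt5e called, and systemic lupus erythematosus 79 with 2 called lower, Mcpt8l2 and the histone pseudogene AABR07027753. Medians ran from -0.04 to 0.18.

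Markers of blood cell types overlapped between the groups. Summed over the neutrophil list, of which 14 of 19 genes were tested, FPKM was 40792, 3197, 13254 and 9892 in CIA rats and 7515, 14607 and 2324 in controls, with 0 genes called. S100a9, a calcium-binding protein that neutrophils hold in bulk, made up most of it with 25700, 1900, 8950 and 6250 against 4910, 9790 and 1320. The monocyte list gave 10395, 5743, 12909 and 9869 against 5701, 10761 and 4242. CIA rat 2 and control 3 were the lowest of their groups on both lists, and control 2 the highest control. Without control 2, 3 neutrophil genes (Fcnb, Lcn2 and Mmp9) and 2 monocyte genes (Vcan and Cd14) were called higher, where 2.91% of all genes were. The neutrophil median of 0.69 became 1.56 without control 2, 0.21 without control 3 and -0.26 without CIA rat 1. The part these markers have in the innate signalling and effector lists was not tested.

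Lymphocyte markers leaned the other way without calls. Of 18 T cell genes 4 had a positive fold change (median -0.18), of 11 B cell genes 1 (median -0.43) and of 11 NK and cytotoxic genes 1 (median -0.76). The NK list summed to 101, 362, 356 and 347 FPKM in CIA rats and 836, 280 and 305 in controls, so that CIA rat 1 was lowest and control 1 highest. The B cell list gave 318, 361, 279 and 283 against 362, 173 and 813. Without control 2, Thy1 (log2 fold change -0.91), Ms4a1 or CD20 (-0.90) and Cr2 were called lower, where 1.18% of all genes were. Without control 3 the B cell median turned to 0.07, while the T cell and NK medians were -0.23 and -1.06. Of the 6 basophil and mast cell genes tested, all had a negative fold change (median -0.75), and Mcpt8l2, a basophil protease, was called lower with 3.47, 4.75, 6.58 and 3.84 against 17.5, 8.33 and 5.05, but not without CIA rat 1, 2 or 4 or control 1 or 2. No gene was called among 7 plasma cell genes (median 0.12), 5 dendritic cell genes (median 0.02) and 2 eosinophil genes.

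Platelet and red cell genes are not leukocyte genes, and they too varied by rat. Of 11 platelet genes, Ppbp, a chemokine of platelet granules, was called lower at 5.75, 12, 5.09 and 7.08 FPKM in CIA rats and 11.3, 12.1 and 27.3 in controls, and the call was lost without CIA rat 1, 3 or 4 or control 2 or 3. Pf4, far more abundant, was at 5730, 7200, 4270 and 8910 against 3110, 5440 and 6040. Of 24 erythroid genes besides haemoglobin 0 were called and the list summed to 757, 3308, 1390 and 709 in CIA rats and 2304, 2378 and 1351 in controls. Without CIA rat 2, 15 of the 24 were called lower, where 1.02% of all genes were, and the median fold change went from -0.31 to -1.37.

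**Figure D5:**
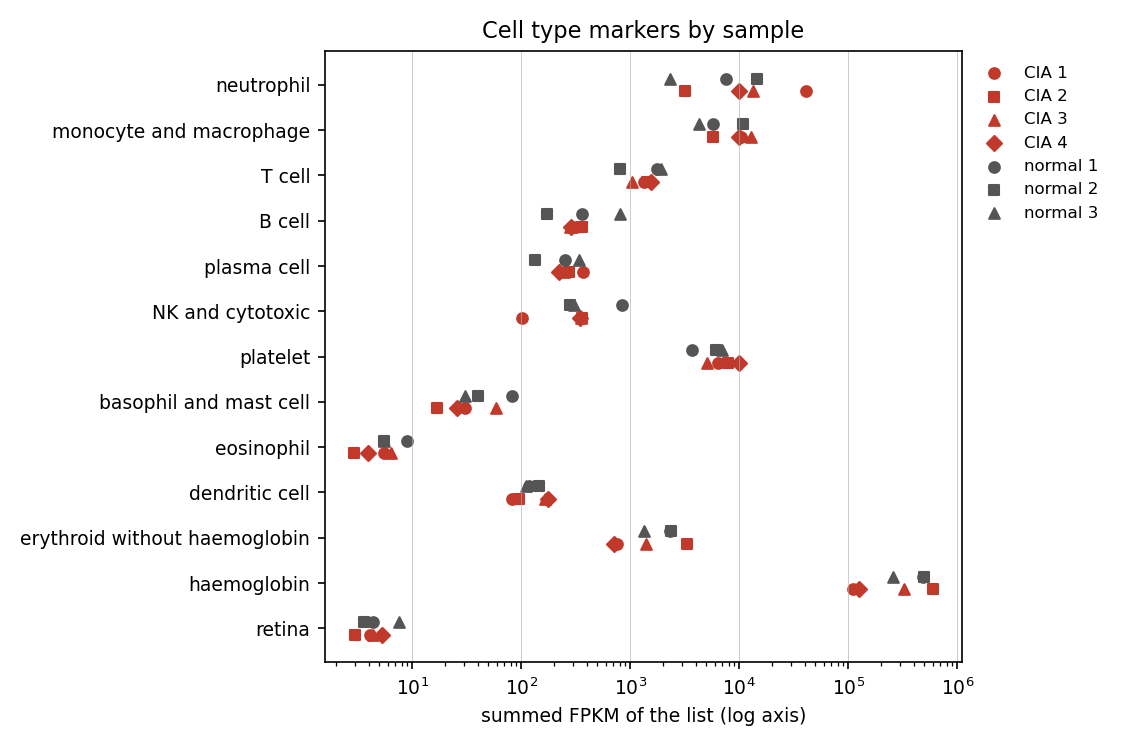
Summed FPKM of each marker list (log axis) in CIA rats (red) and controls (grey), with a marker shape for each sample number. The groups overlap on every list, and the retinal genes sum to at most 7.62 FPKM in any sample.

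Effector lists of innate cells also held mostly positive fold changes. Of 12 complement genes 12 had a positive fold change (median 0.66), of 14 adhesion genes 14 (median 0.33), of 12 Fc gamma receptor genes 9 (median 0.46) and of 18 NADPH oxidase genes 15 (median 0.35), with 0 called in each. Cfp, properdin, which stabilizes the alternative complement convertase, was at 223, 71.5, 131 and 164 in CIA rats and 60.3, 115 and 56.8 in controls. Tyrobp, the signalling adaptor DAP12, was at 1800, 515, 1320 and 1050 against 603, 1110 and 382. Without control 2, the complement genes C2, Cfp and Cfb and the Fc receptor genes Fcgr2b, Tyrobp and Lyn were called higher. Without control 3 the medians of the complement, adhesion, Fc gamma receptor and NADPH oxidase lists were 0.43, 0.10, 0.10 and 0.15.

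The lists of cytokines and chemokines held no called gene. Of 27 other cytokines and receptors 18 had a positive fold change (median 0.20), of 15 chemokine ligands 9 (median 0.27) and of 15 chemokine receptors 10 (median 0.39). Without control 3 these medians were 0.04, -0.14 and 0.21, and 2 chemokine ligands were called lower, where 0.619% of all genes were. Without CIA rat 1 they were 0.01, 0.20 and 0.18. Ccl3, a chemokine for monocytes, was at 591, 616, 2140 and 2140 in CIA rats and 509, 1950 and 355 in controls. Cxcl16, which attracts T cells and takes up oxidized lipoproteins, was at 6.26, 34.2, 60.3 and 61.1 against 4.38, 22.2 and 6.80, named after its values were seen. Its log2 fold change of 1.64 became 3.03 without control 2, 1.23 without control 1 and 1.27 without control 3. Il36b, an interleukin-1 family cytokine outside the lists and likewise chosen after its values were seen, was called higher at 4.49, 1.22, 3.20 and 2.63 against 0.657, 1.52 and 1.10, though not without CIA rat 1, 3 or 4 or control 1 or 3.

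Antigen presentation and housekeeping lists held few calls. Of 12 MHC class II genes 3 had a positive fold change (median -0.26, but 0.32 without control 3), and RT1-Db2 was called lower at 1.41, 0.957, 0.523 and 0.611 FPKM against 2.76, 0.775 and 5.22, but the related RT1-Db1, added after its values were seen, had 94.2, 179, 146 and 178 against 67.4, 71.6 and 520, and the sum differed by 0.06 in log2(FPKM + 1) (exact permutation test, p = 0.971). RT1-Db2 was not called without CIA rat 3 or control 3. Of 21 MHC class I genes 0 were called (median 0.06). Of 83 ribosomal protein genes 26 had a positive fold change (median -0.03), and the call was Rpl30. Of 42 proteasome genes 37 were positive (median 0.16), and the call was Pomp. Of 86 respiratory chain genes 68 were positive (median 0.13) with 0 called. Of 15 heat shock genes 0 were called (median -0.03). Of 18 proliferation genes Ube2c, which helps to end mitosis, was called lower at 0.771, 1.75, 0.968 and 1.04 against 2.28, 2.52 and 2.04, without overlap but at a low level, and the call was lost without CIA rat 1, 3 or 4 or control 1 or 2. Of 22 histone genes 7 were positive (median -0.18), and the linker histone Hist1h1b was called lower, at 0.463 to 0.551 in CIA rats and 4.21, 0.540 and 1.57 in controls. Without control 1 it fell under the FPKM limit and was not tested. Replication-dependent histone RNAs largely lack a poly(A) tail, which the library preparation selected for.

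Other called genes stand on no list and were chosen after their values were seen. Apoe, the lipoprotein of macrophages and liver, was called lower at 3.96, 5.44, 6.38 and 10.7 FPKM in CIA rats and 51.8, 7.07 and 10.5 in controls, and it was not called without control 1 or CIA rat 1. Rtp3, a receptor transporter protein, was called higher at 159, 25.4, 70.9 and 57.4 against 20.6, 32.7 and 8.94, though only leaving out CIA rat 2 or control 2 kept that call. Grb7, an adaptor of receptor tyrosine kinases, rose 3.99-fold at 3.27, 2.13, 5.03 and 2.76 against 0.405, 0.337 and 1.74, without overlap (exact permutation test, p = 0.0286). Because Grb7 was picked with its values known, that p is no independent support. Gchfr, which restrains the first enzyme of tetrahydrobiopterin synthesis, was at 8.93, 13.9, 16.3 and 23.1 against 6.13, 6.73 and 9.36, and lost its call without CIA rat 4 or control 1. AC112062, listed as a miRNA gene with no name, was at 3.61, 12.7, 63.6 and 68.8 in CIA rats and 3.86, 1.01 and 1.69 in controls, a 17.0-fold higher mean although CIA rat 1 lay below control 1. Reads of full-length RNA over a miRNA gene do not measure the mature miRNA.

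Some calls, chosen after their values were seen, rest on genes listed at 0 in several samples. Wbp11, a splicing factor, had 0 counts in all 4 CIA rats, 3034 and 3939 in controls 1 and 2 and 0 in control 3. LOC100912282 had 5198 counts in control 3 and 0 in the other 6 samples. LOC103693563 had 594, 505, 68 and 0 counts in CIA rats and 0 in all controls. Thrsp and Rbp7 had 759 and 1457 counts in control 1 and at most 34 in any other sample. Samples of 1 group thus differed as much as the groups did, within the controls for Wbp11 and LOC100912282 and within the CIA rats for LOC103693563. Short noncoding genes were also among the calls, with the snoRNA genes RF00287 at 8.02, 7.85, 8 and 11.3 FPKM in CIA rats and 28.8, 13.2 and 14.8 in controls, and RF00264 at 14.8, 5.21, 13.9 and 7.45 against 30.4, 15.4 and 17.5, both without overlap. RF00287 was not called without CIA rat 3 or control 1, nor RF00264 without CIA rat 2 or 4 or control 1 or 2. Counts were low, 39 to 48 in CIA rats and 72 to 131 in controls for RF00287, and 59 to 166 and 184 to 303 for RF00264. The library preparation selected poly(A) RNA, and which transcripts these reads came from was not tested.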

How the data were processed

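Poly(A) RNA of peripheral WBCs underwent paired-end sequencing, and the submitters' processing notes name cutadapt 1.9, HISAT2 2.0.4 and StringTie 1.3.4. The authors deposited raw counts, whole numbers for each gene. The deposited FPKM values were scaled by the authors for gene length and sample total, with 0.0001 standing for 0. Genome build, strand setting and the treatment of shared reads are not given in the sources used here.

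Genes averaging 1 FPKM or more across the 7 samples were tested with edgeR 4.0.16 (quasi-likelihood, TMM) on the counts, 4 CIA samples against 3 controls, with Benjamini-Hochberg adjustment. For single genes, an exact two-sided permutation test used log2(FPKM + 1) and all 35 divisions of the samples. For genes named for a lack of overlap or after their values were seen, its p is no independent support. Lists are described by counts and medians, and 43 were used. The members and lists were chosen with earlier results of these data known. Genes named were (a) the called genes averaging 10 FPKM or more without overlap, up to 10 each way, (b) from each list the called members, at most 4, and the most abundant member, (c) Nampt and Tpi1 and (d) haemoglobin genes, while any other is marked in the text as picked after its values were seen. Of the symbols listed, those not found in the table were not analysed here, and a few list members are not reported here. On simulated counts for this comparison with 200 of 11219 genes changed 4-fold, 95.5% were recovered at p under 0.05 and 4.56% of unchanged genes passed. The simulated counts were drawn for each gene on its own, without shifts that whole samples share. In the data 1.57% of all tested genes had a p under 0.05. The simulation therefore checks the fitting and does not tell how many real changes were found.

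Alternatives were DESeq2 1.42.0, limma 3.58.1 on log2(FPKM + 1) or log2(FPKM + 0.1), upper quartile scaling, other FPKM limits, all 3 groups in one fit, the fitted fold, a replicate block, no haemoglobin genes and each sample left out. Summing like-described genes was added after seeing the data. Replicates were separate rats, and no pair within a group agreed within counting error (lowest chi-square per degree of freedom 383.2). At this depth the number of rats limits the precision. The files hold no per-sample column that was left unused, and no authors' comparison columns.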

Additional observations from a re-analysis of the deposited data

Results flagged for a closer look

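Among 94 sets of 4 CIA values tried, 8 held a sample far from the other 3 by Dixon's criterion. Chance passes it in about 1 of 20 independent sets of normally distributed values. These sets share the same 4 rats and some hold values of 0, so that rate is no yardstick for the 8. Cd300le reached 77.6 FPKM in CIA rat 3, against 52.6 to 54.6 in the others. Bcl3 was at 62.9 FPKM in CIA rat 2, against 273 to 308 in the others. RF00287 reached 11.3 FPKM in CIA rat 4. LOC108348082 had 0.133 FPKM in CIA rat 2, and Thrsp and Rbp7 had 0.102 and 0.596 FPKM in CIA rat 3, all with 0 in the other CIA rats. With 0 in the others, any level above 0 meets the criterion. The NK and cytotoxic list summed to 101 FPKM in CIA rat 1, and the proliferation list to 218 FPKM in CIA rat 2, the lowest of the 4 each time.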

How the results depend on the processing

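The count of 77 called genes (37 higher, 40 lower) was 121 with DESeq2 (69 and 52), 145 and 140 with limma on log2(FPKM + 1) and log2(FPKM + 0.1) (79 and 66, 72 and 68), 306 without a filter on low values (124 and 182) and 25 with a mean FPKM of at least 10 (14 and 11). The numbers of CIA rats and controls name different animals, and same-numbered samples deviated from their group means with correlations of 0.06, -0.56 and -0.32, so they do not pair, and with a replicate block 46 genes were called (27 and 19), 0 of them with an adjusted p under 0.05. The 13 list members called became 20 with DESeq2, 24 and 22 with limma, 22 without the filter, 5 with the mean FPKM of at least 10 and 8 with the replicate block. With 1 sample left out, called genes ranged from 53 to 462, those higher from 30 to 329, those lower from 23 to 133, list members called from 8 to 77, and genes with an adjusted p under 0.05 from 0 to 2, against 5 with DESeq2 and 0 in every other fit. Those were LOC103692170 and AABR07052529 without control 1 and Faah without control 2. Upper quartile scaling moved the median of all genes by -0.07 and gave 82 calls, the fit of all 3 groups 87 and the fitted fold 74. Of 124 named genes tested, 31 turned direction with some sample left out, 0 of the 45 called among them. Examples were S100a9 (-0.15 to 1.76 with 1 sample left out), Nampt (-0.09 to 0.92) and Tpi1 (-0.13 to 0.90). With like-described genes summed, the direction turned for Rpl30 (0.04), LOC108348082 (0.39) and RT1-Db2 (0.06). The cause of these shifts was not tested.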
